A study of Mus musculus with 21 samples.

Results

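A set of 8 genes of neural crest and Schwann cells (*Sox10*, *Fabp7*, *Gfra3*, *Erbb3*, *Ednrb*, *Cdh19*, *Ngfr* and *Rxrg*) was read from the deposited table by gene symbol, with the feature of highest mean taken for each gene among features assigned to a single gene. Of these 8 genes, 7 had such a feature, among 14860 genes tested, and *Cdh19* is not analysed here. Neural crest cells leave the dorsal neural tube and migrate through the embryo, and those that follow the growing nerves become Schwann cell precursors, the glia of the peripheral nerves. *Sox10* encodes the transcription factor that keeps these cells in the glial lineage. Their survival and migration depend on signals from axons and mesenchyme, read by receptors such as Erbb3, which binds neuregulin on axons, and Ednrb, which binds endothelins. Nerves and their glia grow into the forelimb bud (FB) during the stages studied here.

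FBs of Swiss mouse embryos, a stock with no engineered allele named in the labels, were collected from freshly dissected embryos (0 h) or after culture of the whole embryo. The E12.5 groups were cultured for 0, 1 or 3 h and the E10.5 groups for 0, 1, 3 or 6 h. The 7 groups held 3 arrays apiece (21 in all). RNA was hybridized to Affymetrix Mouse Exon arrays, and values are log2 units after robust multichip averaging (RMA), which makes the probes of a gene into 1 value per array. The labels call the arrays of a group biological replicates without saying how many embryos entered each, and the study asked how far expression in culture follows expression in utero. Since RNA came from whole FBs, fewer cells of a type and less RNA per cell cannot be told apart in any value below.

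Array medians lay between 6.43 and 6.60 in the 9 E12.5 arrays and between 6.00 and 6.40 in the 12 E10.5 arrays, and the lowest were those of E10.5 3 h replicate 2 (6.00) and E10.5 6 h replicate 3 (6.02). A library that stands apart, E10.5 1 h replicate 1, touches many of the results. Its mean over 15 pan-neuronal genes was 9.87, whereas the remaining 1 h arrays had means of 6.69 and 6.82 and the E10.5 arrays at 0 h of 6.09 to 6.31. Of these genes, 14 were over 1 log2 unit higher in it than in either other 1 h array. Over all 14860 genes, 2.41% were. In a fit that pools the spread over all arrays, it raised the residual SD of *Fabp7* (1.17 with it, 0.46 without) and *Ednrb* (0.49 and 0.18) and so entered every comparison. *Sox2*, listed here with genes of the glia and Schwann lineage, was at 10.32 in this array, against 5.43 and 5.54 in the other 1 h arrays. Of 20 genes of that list 4 were over 1 log2 unit higher in it, and of 12 genes of neural tube and motor neurons also 4. At E10.5, placenta and decidua genes were high in some arrays as well. The mean of 13 such genes was 3.87, 5.77 and 5.82 in the 0 h arrays and 3.88, 5.82 and 4.68 in the 6 h arrays. It ranged from 2.99 to 3.11 in the 1 h arrays and from 3.06 to 3.43 in the 3 h arrays, whereas all E12.5 arrays lay between 2.83 and 3.31. Limb identity was checked on 10 genes of distal limb mesenchyme. Their mean lay between 8.38 and 9.39 in all groups except E10.5 FBs at 6 h. There it lay between 7.31 and 7.62, with 9 of the 10 called lower than at 0 h (2.87% of all genes). The list mean was also lower in E12.5 FBs at 1 h (8.38, 8.63 and 8.65) than at 0 h (9.28, 9.12 and 9.07). In E10.5 FBs at 3 h it was 8.64, 8.90 and 8.82, against 9.33, 9.37 and 9.39 at 0 h. Arrays of E10.5 at 1 h (8.71, 8.48 and 9.36) and E12.5 at 3 h (9.14, 8.98 and 8.88) overlapped those of their stage at 0 h.

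Genes of tissue next to the FB also moved with culture. Of 12 genes of the coelomic mesothelium, the lining of the body cavity, 8 were called higher and 1 lower at 1 h of E10.5 culture, 8 and 0 at 3 h, and 8 and 1 at 6 h (median changes of 1.11, 1.64 and 1.88). Of all genes, 2.79%, 3.23% and 3.89% were called higher at 1, 3 and 6 h, and 1.12%, 1.45% and 2.87% lower. The list mean was 8.34 to 9.38 in all cultured E10.5 arrays, against 7.02 to 7.43 in those at 0 h. *Upk3b*, a uroplakin of mesothelial cells, read 9.26, 9.29 and 8.85 at 1 h, against 6.34, 6.72 and 6.70 at 0 h. In E12.5 FBs 1 of the 12 was called higher at 1 h and 5 at 3 h, with none lower. Of all genes, 1.29% were called higher in E12.5 FBs at 1 h and 9.94% at 3 h. Of 11 genes of the proximal limb and flank, 7 were called higher in E12.5 FBs cultured for 1 h and 9 in those cultured for 3 h, with none lower (medians of 1.06 and 1.30). That mean was 8.96 to 9.51 in all cultured E12.5 arrays, against 7.92 to 8.21 at 0 h. *Hoxc5*, a Hox gene of anterior trunk levels, read 10.76, 10.55 and 11.12 in E12.5 FBs at 3 h, against 7.28, 7.99 and 7.75 at 0 h. In E10.5 culture 2, 1 and 4 of the 11 were called higher at 1, 3 and 6 h, and 1 lower at 6 h. Between the stages at 0 h, 1 of the 11 was called higher and 7 lower in E12.5 FBs (median -1.10), where 19.7% and 7.39% of all genes were. Limb buds express some genes of both lists themselves. The part of adjacent tissue in the changes with culture and between stages given below was not tested.

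**Figure D1:**
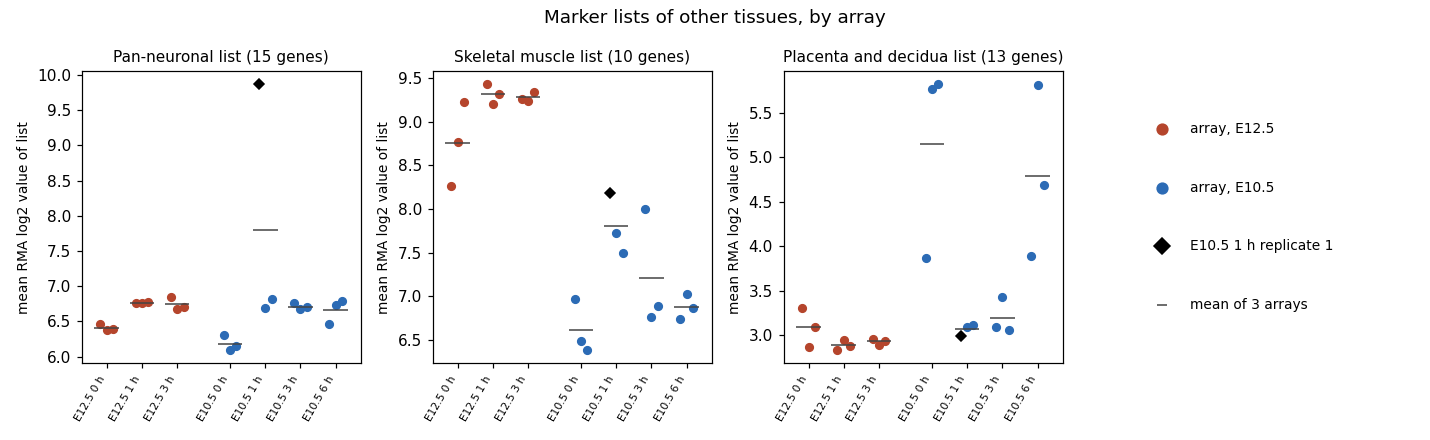
Mean RMA log2 value over the measured genes of 3 marker lists (y axis) in each array, by group (x axis, E12.5 in red, E10.5 in blue). Points are arrays, bars are means of 3 arrays and the black diamond is E10.5 1 h replicate 1, which reached 9.87 on the pan-neuronal list while all other arrays lay below 7.

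Sequence upstream of a RefSeq start is shown for *Fabp7* and *Ednrb*, as a pair whose 1 h change in E10.5 FBs depended most on 1 array. Both runs are the 250 bases before the RefSeq start (mouse build GRCm38.p6), printed on the strand of the gene in the 5′ to 3′ direction, with capitals for matches to the motifs searched. The *Fabp7* window lies at chr10:57784673-57784922 on the plus strand and the *Ednrb* window at chr14:103843702-103843951 on the minus strand. The *Fabp7* window ends where the gene begins. The *Ednrb* gene spans chr14:103814615-103844508, so its window lies inside the gene, before an internal start.
Fabp7: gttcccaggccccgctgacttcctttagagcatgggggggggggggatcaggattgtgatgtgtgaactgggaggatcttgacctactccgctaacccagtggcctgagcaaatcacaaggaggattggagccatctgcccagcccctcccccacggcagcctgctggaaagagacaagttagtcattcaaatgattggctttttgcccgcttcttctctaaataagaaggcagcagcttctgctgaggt
Ednrb: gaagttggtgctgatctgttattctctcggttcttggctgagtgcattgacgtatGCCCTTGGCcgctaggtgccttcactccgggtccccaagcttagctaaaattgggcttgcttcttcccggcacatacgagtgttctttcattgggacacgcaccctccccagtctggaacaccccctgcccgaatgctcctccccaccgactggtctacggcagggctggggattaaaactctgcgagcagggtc
The motifs were ACAAAG and ACAATG, cores to which Sox proteins bind, and GCCNNNGGC, the core of Tfap2 sites, each on both strands. No match overlapped another. The *Fabp7* window held none of them, and the *Ednrb* window held a GCCNNNGGC match beginning 195 bases before that internal start. Windows for *Ngfr* and *Rxrg* (1 and 2 starts) were also read and held none. Of 32851 windows of the same length before RefSeq starts, 16.5% held ACAAAG, 10.7% ACAATG and 13.7% GCCNNNGGC, so a match is a description of letters and not of binding. *Sox10*, *Gfra3* and *Erbb3* are given by values only.

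All 7 genes were higher in E12.5 than in E10.5 FBs at 0 h. Over all genes tested, 19.7% were called higher at E12.5 by limma (adjusted p under 0.05, Benjamini-Hochberg over 14860 genes) and 7.39% lower (27.1% either way), with a median difference of 0.03 over all genes. *Rxrg*, a retinoid X receptor that pairs with other nuclear receptors, read 8.76, 9.27 and 9.63 in E12.5 FBs, against 5.97, 5.82 and 5.76 in E10.5 FBs. *Fabp7*, a fatty acid binding protein of radial glia and Schwann cell precursors, read 8.59, 8.75 and 9.35 in E12.5 FBs, against 5.01, 5.33 and 4.59 in E10.5 FBs. The arrays of the stages did not overlap for either gene. The difference was 3.37 ± 0.21 for *Rxrg* (SE, adjusted p = 5.46e-09) and 3.92 ± 0.87 for *Fabp7* (adjusted p = 0.00271). The *Fabp7* values of E10.5 FBs at 0 h are low and not separated from background, so the size of its changes from them is uncertain.

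Receptors for neural crest signals showed the same direction between the stages. *Ednrb* averaged 9.27 ± 0.29 in E12.5 FBs and 7.05 ± 0.31 in E10.5 FBs (SD, n = 3 arrays each), a difference of 2.22 (adjusted p = 0.000224). *Gfra3*, the receptor of artemin, averaged 8.04 ± 0.05 in E12.5 FBs and 6.30 ± 0.09 in E10.5 FBs, a difference of 1.74 (adjusted p = 1.18e-06). *Ngfr*, the low affinity neurotrophin receptor p75, differed by 1.56 (adjusted p = 6.88e-05). *Erbb3* was at 8.78, 8.88 and 9.51 in E12.5 FBs, against 8.25, 8.003 and 7.90 in E10.5 FBs, and differed by 1.01 (adjusted p = 0.000415). *Sox10*, at 7.07, 6.93 and 7.29 in E12.5 FBs, against 6.23, 6.16 and 6.05 in E10.5 FBs, differed by 0.95 (adjusted p = 0.000161). Its difference was the smallest of the 7. Leaving out any array of these groups, or shifting all arrays to a common median, kept all 7 calls. Placenta and decidua values differed between the stages too, with a list mean of 3.31, 2.87 and 3.10 in E12.5 FBs at 0 h, and with that mean as a covariate 5 of the 7 calls held. The calls of *Erbb3* (0.61, adjusted p = 0.114) and *Fabp7* (4.01, adjusted p = 0.0574) did not. Pan-neuronal means at 0 h were 6.38 to 6.46 in E12.5 FBs and 6.09 to 6.31 in E10.5 FBs. The part of placenta and decidua in these differences was not tested. Genes of the proximal limb and flank were lower at E12.5, as given above.

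**Figure D2:**
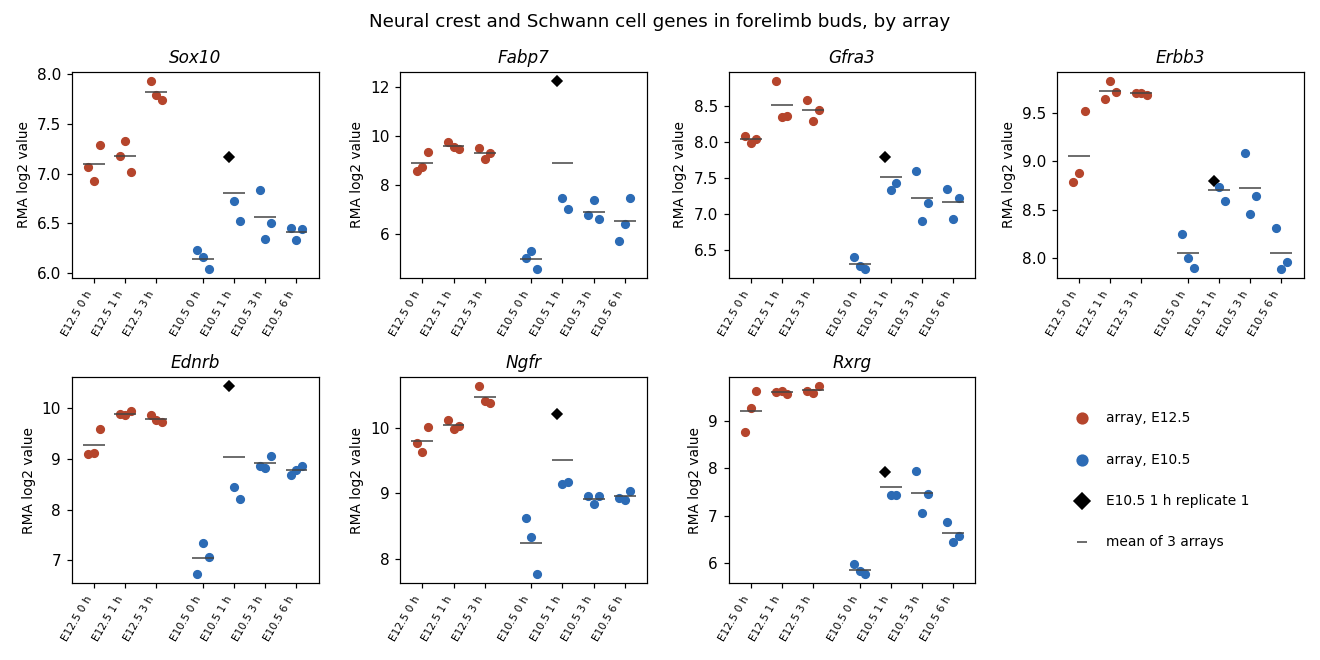
RMA log2 value (y axis, its own range in each panel) of the 7 genes in each of the 21 arrays, by group (x axis, E12.5 in red, E10.5 in blue). Points are arrays, bars are means of 3 arrays and the black diamond is E10.5 1 h replicate 1, whose *Fabp7* value of 12.23 is the highest of all arrays for that gene.

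After 1 h of culture all 7 genes were called higher in E10.5 FBs than at 0 h. The background was 2.79% of genes called higher and 1.12% lower (3.91% either way), and the median change was 1.27 over the 7 genes and -0.0081 over all genes. *Rxrg* read 7.93, 7.44 and 7.44 at 1 h, against 5.97, 5.82 and 5.76 at 0 h, a change of 1.75 (adjusted p = 0.000156). *Gfra3* read 7.79, 7.34 and 7.44 at 1 h, against 6.40, 6.28 and 6.23 at 0 h, a change of 1.22 (adjusted p = 0.000665). Every 1 h array was above every 0 h array for both genes, and the change of both kept its call without any single array.

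*Fabp7*, *Ednrb* and *Ngfr* changed by amounts that depended on E10.5 1 h replicate 1. *Fabp7* read 12.23, 7.47 and 7.02 at 1 h, against 5.01, 5.33 and 4.59 at 0 h, a change of 3.93 ± 0.87 (SE, adjusted p = 0.0174), and its change was 2.27 (adjusted p = 0.00445) without that replicate. *Ednrb* read 10.43, 8.45 and 8.22 at 1 h, against 6.73, 7.34 and 7.07 at 0 h, a change of 1.99 (adjusted p = 0.00504), or 1.29 (adjusted p = 0.000545) without it. *Ngfr* read 10.22, 9.14 and 9.18 at 1 h, against 8.62, 8.33 and 7.77 at 0 h, a change of 1.27 (adjusted p = 0.00445), or 0.92 (adjusted p = 0.0121) without it. In all 3 genes the remaining 1 h arrays were also above every 0 h array. Without it 5 of the 7 genes were called, where 1.62% of all genes were called either way. *Fabp7* was not called without E10.5 0 h replicate 3 (adjusted p = 0.0759).

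*Sox10* and *Erbb3* had the smallest changes at 1 h. *Sox10* read 7.17, 6.72 and 6.53 at 1 h, against 6.23, 6.16 and 6.05 at 0 h, a change of 0.66 (95% interval 0.34 to 0.98, adjusted p = 0.021). It was not called without E10.5 1 h replicate 1 (0.48, adjusted p = 0.117), nor without E10.5 0 h replicate 2 or 3 (adjusted p = 0.072 and 0.0928). *Erbb3* read 8.80, 8.73 and 8.59 at 1 h, against 8.25, 8.003 and 7.90 at 0 h, a change of 0.65 (adjusted p = 0.0489). Its call was lost without any 1 h array, or without 0 h replicate 2 or 3, with adjusted p between 0.0672 and 0.174.

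With the pan-neuronal mean as a covariate, *Gfra3* (1.00, adjusted p = 0.0358), *Ednrb* (0.93, adjusted p = 0.0493) and *Rxrg* (1.51, adjusted p = 0.00948) kept their call at 1 h (0.72% of all genes called). The changes were 1.34 for *Fabp7* (adjusted p = 0.168), 0.71 for *Ngfr* (adjusted p = 0.124), 0.38 for *Sox10* (adjusted p = 0.395) and 0.60 for *Erbb3* (adjusted p = 0.331). With the placenta and decidua mean as a covariate all 7 calls at 1 h were lost (0.619% of all genes called), and changes ranged from 0.25 for *Erbb3* to 4.03 for *Fabp7*, with adjusted p between 0.0631 and 0.73. Those of *Ednrb* (2.21, adjusted p = 0.101) and *Rxrg* (1.33, adjusted p = 0.0631) lay between. That list mean was lower in all 1 h than in all 0 h arrays, as given above, so this fit separates the covariate from culture poorly. The mesothelium mean was higher in all 1 h than in all 0 h arrays. The part of these tissues in the changes was not tested.

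**Figure D3:**
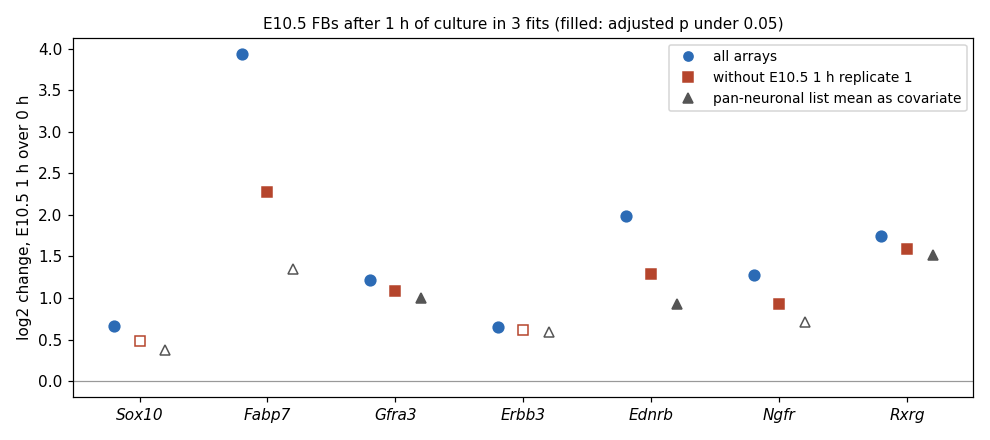
Log2 change between E10.5 FBs at 1 h and 0 h (y axis) of the 7 genes (x axis) in the fit over all arrays (circles), without E10.5 1 h replicate 1 (squares) and with the pan-neuronal list mean as a covariate (triangles). Filled symbols have an adjusted p under 0.05, and only *Gfra3*, *Ednrb* and *Rxrg* are filled in all 3 fits.

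At 3 h, 4 genes were called higher than at 0 h in E10.5 FBs (*Gfra3*, *Erbb3*, *Ednrb* and *Rxrg*), where 3.23% of all genes were called higher and 1.45% lower (4.68% either way). *Ednrb* read 8.87, 8.81 and 9.07 at 3 h, against 6.73, 7.34 and 7.07 at 0 h, a change of 1.87 (adjusted p = 0.00751). *Rxrg* read 7.94, 7.06 and 7.46 at 3 h and changed by 1.64 (adjusted p = 0.000176). *Gfra3* changed by 0.91 (adjusted p = 0.00591) and *Erbb3* by 0.67 (adjusted p = 0.0388). *Erbb3* lost its call without 0 h replicate 2 or 3, or without 3 h replicate 1 or 3 (adjusted p between 0.0639 and 0.147), and *Ngfr*, at 0.68 (adjusted p = 0.104), was called without 0 h replicate 1 (0.87, adjusted p = 0.0456) and with array weights (0.89, adjusted p = 0.00195). *Sox10* was at 6.83, 6.34 and 6.51, with a change of 0.42 (adjusted p = 0.131), and *Fabp7* at 6.77, 7.38 and 6.60, with a change of 1.94 (adjusted p = 0.218). Every 3 h array of *Fabp7* was above every 0 h array. With only the groups compared *Fabp7* was called (adjusted p = 0.0404), and *Gfra3* (adjusted p = 0.127) and *Erbb3* (adjusted p = 0.234) were not. Without E10.5 1 h replicate 1, which is not in this comparison but is in the estimate of spread, *Fabp7* (adjusted p = 0.00301) and *Ngfr* (adjusted p = 0.0202) were called as well, 6 of 7 genes with 4.87% of all genes called. With the placenta and decidua covariate the 4 calls were lost, at 2.08 for *Ednrb* (adjusted p = 0.083), 1.24 for *Rxrg* (adjusted p = 0.0546), 0.59 for *Gfra3* (adjusted p = 0.254) and 0.29 for *Erbb3* (adjusted p = 0.598). That list mean was lower in all 3 h than in all 0 h arrays too, so the fit again separates it from culture poorly.

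At 6 h, 3 genes were called higher than at 0 h (*Gfra3*, *Ednrb* and *Rxrg*), with 3.89% of all genes called higher and 2.87% lower (6.76% either way). *Ednrb* stayed near its 3 h level at 8.69, 8.79 and 8.86 (1.73 over 0 h, adjusted p = 0.0072), and *Gfra3* at 7.35, 6.93 and 7.23 (0.86, adjusted p = 0.00485). *Rxrg* was at 6.86, 6.44 and 6.57 (0.77, adjusted p = 0.0346), but was called without only 1 of the 6 arrays, 6 h replicate 2. Without each of the other arrays its adjusted p lay between 0.051 and 0.116. *Erbb3* was at 8.31, 7.89 and 7.96, with a change of 0.0035 (95% interval -0.37 to 0.38). *Ngfr* was not called (0.71, adjusted p = 0.0751). It was called without 0 h replicate 1 (0.90, adjusted p = 0.036), with a common median (0.78, adjusted p = 0.0443), with array weights (0.84, adjusted p = 0.011) and with the pan-neuronal covariate (0.55, adjusted p = 0.0459). *Rxrg* lost its call with the pan-neuronal covariate (0.70, adjusted p = 0.0551) and with all features kept (adjusted p = 0.0612). *Sox10* changed by 0.27 (interval -0.05 to 0.58) and *Fabp7* by 1.56 (interval -0.28 to 3.39). Without E10.5 1 h replicate 1 in the estimate of spread, *Fabp7* (adjusted p = 0.00889) and *Ngfr* (adjusted p = 0.01) were called too, 5 of 7 genes with 7.11% of all genes called. With the placenta and decidua covariate *Ednrb* (1.77, adjusted p = 0.00868), *Gfra3* (0.80, adjusted p = 0.00667) and *Rxrg* (0.70, adjusted p = 0.0449) kept their calls.

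Between 6 h and 3 h of culture *Rxrg* was the gene called, and it fell by 0.86 (adjusted p = 0.0406), where 1.62% of all genes were called lower and 0.659% higher (2.27% either way). The call was lost without 3 h replicate 1 or 3, or without 6 h replicate 2 or 3 (adjusted p between 0.0802 and 0.17), and with the placenta and decidua covariate (-0.54, adjusted p = 0.444). *Erbb3* changed by -0.67 (adjusted p = 0.0607) and was called without 3 h replicate 2 (adjusted p = 0.0336) or 6 h replicate 1 (adjusted p = 0.0235). The other 5 genes changed by amounts between -0.38 and 0.03, with adjusted p of 0.671 or more. The *Erbb3* and *Rxrg* values of 3 h replicate 1 (9.08 and 7.94) were the highest of the group. So were its values of *Sox10* (6.83), *Gfra3* (7.60) and, narrowly, *Ngfr* (8.963, with 8.956 in replicate 3), but not those of *Fabp7* and *Ednrb*. Its skeletal muscle list mean was also the highest (7.995, with 6.76 and 6.88 in the others).

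**Figure D4:**
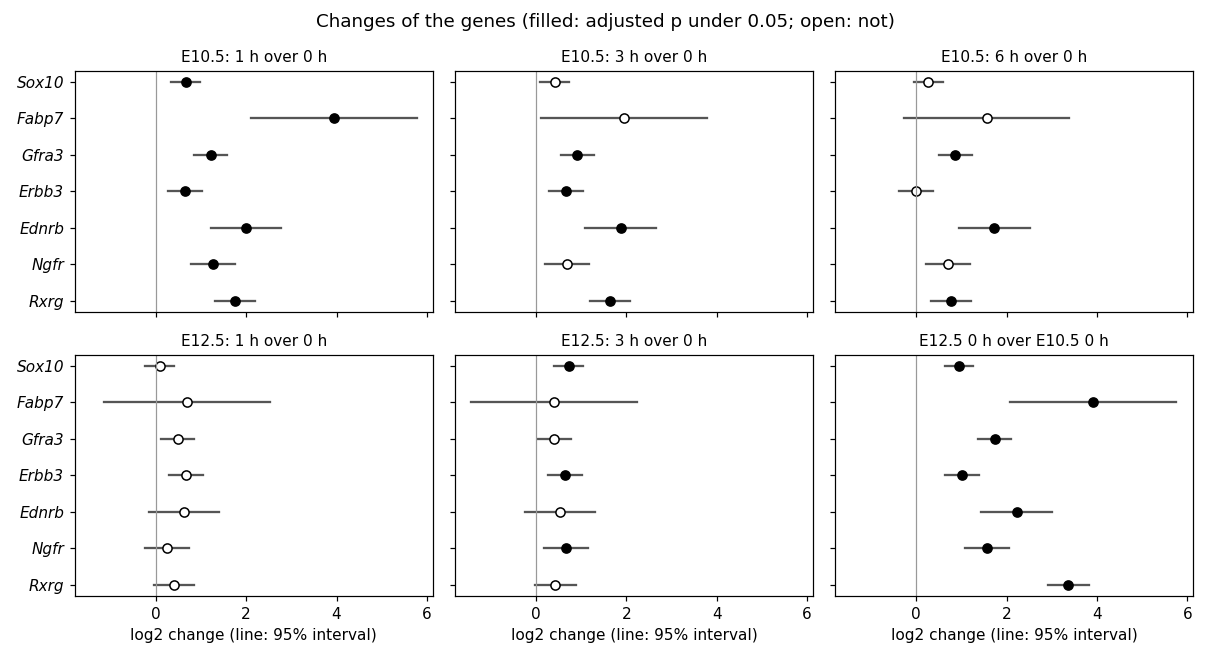
Log2 change (x axis) with its 95% interval (line) of the 7 genes (y axis) in 6 comparisons: cultured over 0 h at E10.5 (top row) and at E12.5 (bottom row, left and middle), and E12.5 over E10.5 at 0 h (bottom right). Filled circles have an adjusted p under 0.05; all 7 are filled for E10.5 at 1 h and for the stages at 0 h, and none for E12.5 at 1 h.

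In E12.5 FBs none of the 7 genes was called after 1 h, where 1.29% of all genes were called higher and 0.828% lower (2.11% either way). At an unadjusted p under 0.05 in limma *Erbb3* and *Gfra3* passed, 2 of the 7 genes, where 13.5% of all genes did. *Ednrb* (0.63) was called without E10.5 1 h replicate 1 in the estimate of spread (adjusted p = 0.0321). *Erbb3* read 9.64, 9.82 and 9.71 at 1 h, against 8.78, 8.88 and 9.51 at 0 h, a change of 0.67 (adjusted p = 0.0642), and was called without 0 h replicate 3 (0.89, adjusted p = 0.00808). The remaining changes ran from 0.08 (*Sox10*) to 0.69 (*Fabp7*), all above 0.

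After 3 h, *Sox10*, *Erbb3* and *Ngfr* were called higher than at 0 h in E12.5 FBs, where 9.94% of all genes were called higher and 17.6% lower (27.5% either way). *Sox10* read 7.93, 7.79 and 7.74 at 3 h, against 7.07, 6.93 and 7.29 at 0 h, a change of 0.73 (adjusted p = 0.00188), and stayed called without any single array. *Erbb3* changed by 0.64 (adjusted p = 0.0128) and lost its call without 0 h replicate 1 or 2 (adjusted p = 0.0743 and 0.0632). *Ngfr* read 10.63, 10.41 and 10.37 at 3 h, against 9.77, 9.63 and 10.01 at 0 h, a change of 0.67 (adjusted p = 0.0387), and lost its call without any 1 array except 0 h replicate 3. Of the other genes, *Rxrg* changed by 0.43 (adjusted p = 0.147) and was called without 0 h replicate 3 (adjusted p = 0.0432), while *Ednrb* (0.52) and *Fabp7* (0.40) were not called. *Ednrb* was called without E10.5 1 h replicate 1 in the estimate of spread (adjusted p = 0.0147). *Gfra3* (0.41, adjusted p = 0.0958) was called with a common median (0.45, adjusted p = 0.0428), quantile normalization (0.49, adjusted p = 0.0242), array weights (adjusted p = 0.0287) or only the groups compared (adjusted p = 0.018). Proximal limb and flank genes were higher in the same arrays, as given above, and their part was not tested.

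The size of the change differed between the stages for *Rxrg* at 3 h. Its change was 0.43 in E12.5 FBs, against 1.64 in E10.5 FBs, a difference of -1.20 ± 0.30 (SE, adjusted p = 0.0157), which remained called without any single array but not with the placenta and decidua covariate (-0.84, adjusted p = 0.123). At 3 h, 9.43% of all genes were called with a lower change at E12.5 and 4.83% with a higher one (14.3% either way). No other gene of the 7 was called, and the differences for *Ednrb* (-1.35, adjusted p = 0.0926), *Fabp7* (-1.54, adjusted p = 0.429) and *Gfra3* (-0.51, adjusted p = 0.179) were also below 0. Without E10.5 1 h replicate 1 in the estimate of spread, *Ednrb* (adjusted p = 0.0016) and *Fabp7* (adjusted p = 0.0443) were called beside *Rxrg*, 3 of 7 genes with 13.8% of all genes called. At 1 h no gene was called (0.39% of all genes lower, 0.148% higher, 0.538% either way), and all but *Erbb3* were below 0 at an unadjusted p under 0.05 in limma, where 6.59% of all genes were. E10.5 1 h replicate 1 is part of this comparison. Without it the difference went from -3.24 to -1.58 for *Fabp7*, from -1.36 to -0.66 for *Ednrb* and from -1.04 to -0.68 for *Ngfr*. *Rxrg* had a difference of -1.35 (adjusted p = 0.0523) and was called without E10.5 0 h replicate 1 (adjusted p = 0.0306) or E12.5 0 h replicate 1 (adjusted p = 0.0211). The difference for *Erbb3* at 1 h was 0.01 (interval -0.52 to 0.54). E12.5 FBs began from higher levels of all 7 genes, as given above.

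The stages were also compared at equal times of culture. *Gfra3* (1.00), *Erbb3* (1.02) and *Rxrg* (2.02) were called higher in E12.5 than in E10.5 FBs at 1 h, where 13.8% of all genes were called higher and 4.35% lower (18.1% either way). Without E10.5 1 h replicate 1, all 7 genes were called, with 2.34 for *Fabp7* (adjusted p = 0.000388), 1.56 for *Ednrb* (adjusted p = 6.85e-06), 0.88 for *Ngfr* (adjusted p = 0.00241) and 0.55 for *Sox10* (adjusted p = 0.0135), where 15.8% of all genes were called either way. At 3 h, 6 genes were called higher in E12.5 FBs, where 17.7% of all genes were called higher and 11% lower (28.7% either way). They included *Rxrg* (2.17), *Ngfr* (1.55), *Sox10* (1.26), *Gfra3* (1.23) and *Erbb3* (0.97). *Fabp7* (2.38, adjusted p = 0.0491) was the sixth and lost its call without any 1 array of the comparison (adjusted p between 0.0718 and 0.119), and *Ednrb* was not called (0.87, adjusted p = 0.0853). Without E10.5 1 h replicate 1 in the estimate of spread both were called (adjusted p = 8.78e-05 for *Fabp7* and 0.00038 for *Ednrb*), with 29.2% of all genes.

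Group means fell into a similar order in all 7 genes. E10.5 FBs at 0 h were lowest throughout. *Sox10* and *Ngfr* were highest in E12.5 FBs at 3 h (7.82 and 10.47), as was *Rxrg* (9.65), while *Fabp7*, *Gfra3*, *Erbb3* and *Ednrb* were highest at 1 h (9.59, 8.52, 9.72 and 9.90). For *Rxrg* the ranges of the 3 E12.5 groups overlapped, and for *Sox10* those of E12.5 at 0 h and 1 h did. Ranges of E12.5 at 1 h and 3 h overlapped for *Fabp7*, *Gfra3* and *Erbb3*. For *Ednrb* they were barely apart (lowest 9.864 at 1 h, highest 9.862 at 3 h). Arrays of *Erbb3* in E10.5 FBs at 6 h and 0 h overlapped as well. The spread among arrays of a group was largest in *Fabp7* (residual SD 1.17, or 0.46 without E10.5 1 h replicate 1) and smallest in *Sox10* (0.19, or 0.15).

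Over the 21 arrays the 7 genes correlated with one another at r between 0.74 and 0.96 (median 0.90 over 21 pairs). Deviations from group means correlated at 0.11 to 0.92 (median 0.62), and at -0.12 to 0.90 (median 0.36) without E10.5 1 h replicate 1. These are descriptions, since the points share stage, time and array. Deviations of *Ednrb* and *Fabp7* correlated with those of the pan-neuronal list at 0.91 and 0.94 over 21 arrays, and at -0.23 and 0.39 without that replicate. *Rxrg* and *Erbb3* correlated with the skeletal muscle list (10 genes, among them *Myod1* and *Myog*) at 0.97 and 0.95 over all arrays and at 0.83 and 0.75 in deviations from group means, or 0.80 and 0.75 without that replicate. Of the 10 muscle genes, 7 were called higher in E12.5 than in E10.5 FBs at 0 h (19.7% of all genes), with a median difference of 2.67. At 1 h of E10.5 culture 4 of the 10 muscle genes were called higher (2.79% of all genes). Their mean lay between 8.27 and 9.44 in all E12.5 arrays. In E10.5 FBs its range was 6.38 to 6.97 for the 0 h arrays, 7.50 to 8.19 for 1 h, 6.76 to 7.995 for 3 h and 6.73 to 7.02 for 6 h. The part of muscle in the *Rxrg* and *Erbb3* values was not tested.

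Outside the 7 genes, values closest to *Sox10* over the 21 arrays were those of *Tspan18* (r = 0.96), *Sorcs2* (0.95), *Gfra2* (0.95), *Cacna1h* (0.95), *Pygm* (0.94), *Cacng4* (0.94), *Bace1* (0.94), *Prox1* (0.94), *Fzd8* (0.94) and *Fndc5* (0.93). In deviations from group means the closest were *Pclo* (0.92), *Spon1* (0.89), *Tmem132e* (0.88), *Kif1a* (0.87), *Moxd1* (0.86), *Asic4* (0.85), *Fndc5* (0.85), *Satb1* (0.85), *Trim2* (0.85) and *Mtcl1* (0.85). Over 20 arrays, without E10.5 1 h replicate 1, the closest were *Bace1* (0.97), *Sorcs2* (0.96), *Gfra2* (0.96), *Tspan18* (0.96), *Cacna1h* (0.95), *Kif1a* (0.95), *Sema5b* (0.95), *Six2* (0.95), *Ltbp4* (0.95) and *Fzd8* (0.95). Of these, *Gfra2* and *Moxd1* are also in the lists below and *Fndc5* is in both rankings over 21 arrays. The ranking over 20 arrays is of values. Deviations were not ranked without E10.5 1 h replicate 1, so the part of that array in their ranking is not known.

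Some receptors related to those above also rose. Of 9 partner and related receptors with a value, 3 rose at 1, 3 and 6 h of E10.5 culture and none fell (median changes of 0.96, 0.53 and 0.44, where the medians over all genes were -0.0081, -0.02 and -0.037). Of all genes, 2.79%, 3.23% and 3.89% were called higher at these times. Without E10.5 1 h replicate 1 the median at 1 h was 0.57 and 2 of the 9 were called. The 3 were the neurotrophin receptors *Ntrk2* (2.28, 2.17 and 2.22) and *Ntrk3* (1.10, 1.23 and 1.02) and the neurturin receptor *Gfra2* (1.12, 1.08 and 0.97). *Ntrk2* read 8.59, 8.43 and 8.04 at 1 h, against 5.92, 6.35 and 5.95 at 0 h. The 1 h arrays were close together in *Ntrk2*, with no array apart. *Erbb2*, the coreceptor of Erbb3, changed by 0.17 at 1 h (adjusted p = 0.684). Between the stages at 0 h, 5 of the 9 were called higher in E12.5 FBs (*Ntrk2* 2.35, *Gfra2* 2.13, *Gfra1* 1.92, *Egfr* 1.42 and *Rxra* 0.50), where 19.7% of all genes were. *Ntrk3* was not (-0.16, adjusted p = 0.606).

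Of 9 ligand and processing genes, *Edn1*, an endothelin that binds Ednra and Ednrb, was the 1 gene called higher at 1 h (1.39, adjusted p = 0.0113) and at 3 h (1.96, adjusted p = 0.000634) of E10.5 culture, and at 6 h *Edn1* (1.02) and *Bdnf* (0.39) were. Over all genes the shares called higher were 2.79%, 3.23% and 3.89%. *Edn1* read 6.29, 6.30 and 6.24 at 1 h, against 4.72, 5.12 and 4.84 at 0 h. *Nrg1*, the ligand of Erbb3, read 8.41, 6.11 and 6.04 at 1 h, with a change of 1.20 (adjusted p = 0.109), and its high value was that of E10.5 1 h replicate 1. *Edn3*, the ligand of Ednrb in neural crest, was higher by 0.97 in E12.5 than in E10.5 FBs at 0 h (adjusted p = 4.61e-06), and *Gdnf* was lower (-1.14, adjusted p = 0.00106).

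Of 20 genes of the glia and Schwann lineage, 2 were called higher at 1 h of E10.5 culture, where 2.79% of all genes were, and none lower (median 0.38). *Pmp22*, a myelin protein that fibroblasts also express, rose by 1.09, 1.87 and 2.18 at 1, 3 and 6 h, and *Moxd1* by 1.31 and 0.93 at 1 and 3 h (0.69 at 6 h, adjusted p = 0.0671). *Mbp* (0.11, adjusted p = 0.804), *S100b* (0.03) and *Gfap* (adjusted p = 0.997), genes of mature glia, were not called at 1 h. Their levels lay between 4.53 and 6.42 in all arrays. At 0 h, 5 of the 20, where 19.7% of all genes were, were called higher in E12.5 than in E10.5 FBs (*Pmp22* 2.01, *Moxd1* 1.47, *Adgrg6* 1.45, *Gjc3* 1.14 and *Cnp* 1.03) and *Gfap* was called lower (-0.51, with 7.39% of all genes).

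Of 14 neural crest regulators, *Zeb2* was called at 1 h of E10.5 culture (0.95, adjusted p = 0.0306), and with *Snai2* (0.46) and *Ets1* (0.60) at 3 h. At 6 h the same count of 3 was called higher (*Zeb2* 0.83, *Ets1* 0.71 and *Snai2* 0.46), and *Tfap2a* was called lower (-1.16, with 2.87% of all genes). Of all genes, 2.79%, 3.23% and 3.89% were called higher at 1, 3 and 6 h. *Foxd3*, which marks early crest, changed by 0.47 at 1 h (adjusted p = 0.326). Between the stages at 0 h, *Zeb2* (1.38), *Sox5* (1.34), *Snai2* (0.98), *Tfap2b* (0.97) and *Sox9* (0.86) were higher in E12.5 FBs, and *Pax3* (-2.40) and *Snai1* (-0.84) were lower. Of all genes, 19.7% were called higher and 7.39% lower in that comparison.

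Of 9 melanoblast genes, the pigment cell branch of the crest, none was called higher in cultured E10.5 FBs at 1, 3 or 6 h. *Gpnmb* was called lower at 1 h (-1.83) and 3 h (-1.71), where 1.12% and 1.45% of all genes were. It read 4.68, 4.67 and 4.96 at 1 h, against 5.11, 7.48 and 7.22 at 0 h. The 2 high arrays at 0 h were those with the highest placenta and decidua means. In E12.5 FBs *Pmel* (0.78), *Dct* (0.68) and *Tyr* (0.49) were called higher at 3 h, where 9.94% of all genes were. All 3 are low, and *Tyr* read 3.07, 3.25 and 3.41 at 3 h, against 2.81, 2.69 and 2.76 at 0 h. Sympathetic neuron genes, also of crest origin, had 2 of 8 called higher at 1 h of E10.5 culture (2.79% of all genes). They were *Chrna3* (2.96, adjusted p = 0.011), a nicotinic receptor subunit, and *Dbh* (2.43, adjusted p = 0.00305), which makes noradrenaline. *Chrna3* was at 10.38 and *Dbh* at 8.65 in E10.5 1 h replicate 1, with 6.94 and 6.84 and with 7.31 and 7.28 in the other 1 h arrays. The list mean was 7.98, 6.88 and 6.80 at 1 h, against 6.39, 6.20 and 6.15 at 0 h, and it was 5.69 to 5.95 in E12.5 FBs at 0 h.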

How the data were processed

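FBs of 21 Swiss mouse samples were profiled on Affymetrix Mouse Exon 1.0 ST arrays, 1 array per sample. The deposited values are log2 units that the authors made with RMA in the Affymetrix Expression Console, so probe-level background and normalization were set before this work. The version of that software and a genome build are not given in the sources used here. The number of arrays limits the precision.

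Of 23332 features, 14996 carried 1 gene and were kept, 1019 carried several and 7317 carried none. For 135 genes with more than 1 feature the one of highest mean was used. The 14860 genes, with symbols updated by gene identifier to RefSeq (GRCm38.p6), went into limma 3.58.1 (R 4.3.3) in 1 fit whose terms were the 7 group means. P-values were adjusted by Benjamini-Hochberg across these genes and called under 0.05. An exact permutation of 3 against 3 arrays cannot go below p = 0.1. Errors after ± are SD or SE as named.

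The 8 genes and the lists were chosen with earlier results of these data known. By the rule for named genes, all 8 genes, up to 6 called genes of each list and comparison and the 10 genes closest to *Sox10* were eligible. Those of lists and comparisons not described are left out, and uncalled list genes were chosen after their values were seen. The methods give a p threshold for the arrays with no test beside it and, in a general statement, name a Mann-Whitney unpaired t-test. An unpaired t-test was run as an alternative, called the methods' t-test. Alternatives were other normalizations, filters, thresholds, covariates, array weights, a block for the replicate number, and leaving out each array, and leaving out both arrays of low median, or E10.5 1 h replicate 1 where a comparison does not hold it, was chosen after seeing the data. The fitting code was tested on simulated data.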

Additional observations from a re-analysis of the deposited data

Results flagged for a closer look

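The change of *Rxrg* after 3 h of culture differed between the stages by a test of the difference itself. It was 0.43 in E12.5 FBs, against 1.64 in E10.5 FBs, a difference of -1.20 (limma, adjusted p = 0.0157), and -0.84 (adjusted p = 0.123) with the placenta and decidua covariate. All 3 E10.5 arrays at 3 h were above the 3 at 0 h. *Rxrg* was the 1 gene of the 7 called for this difference. Of all genes, 9.43% were called with a lower change at E12.5 and 14.3% either way. *Rxrg* values also followed the skeletal muscle list, as given above, and the part of muscle was not tested.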

How the results depend on the processing

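Counts of the 7 genes called, in the order of the report, depended on the settings as follows. At 1 h of E10.5 culture (7 called) 4 were called at an adjusted p under 0.01, 3 with the pan-neuronal covariate, 0 with the placenta and decidua covariate, 2 with only the groups compared, and by the methods' t-test 3 at an unadjusted p under 0.01 and 0 after Benjamini-Hochberg. At 3 h (4 called) there were 0 with the placenta and decidua covariate and 0 by the methods' t-test after Benjamini-Hochberg, and at 6 h (3 called) 0 by that test after the same adjustment. For 1 h of E10.5 culture that test called 0 of 14860 genes after adjustment. For 6 h over 3 h (1 called) 2 were called with the lowest 30% of genes left out, with trend and robust moderation, with array weights and at an unadjusted p under 0.01, and 0 with all features, at an adjusted p under 0.01, with the placenta and decidua covariate, with only the groups compared and by the methods' t-test at either threshold. At 1 h of E12.5 culture (0 called) 1 was called with quantile normalization, the filter of low genes, trend and robust moderation, an unadjusted p under 0.01 or without both arrays of low median, 2 with array weights and 0 by the methods' t-test at either threshold. At 3 h of E12.5 culture (3 called) there were 1 at an adjusted p under 0.01 and 5 with only the groups compared. For E12.5 over E10.5 at 1 h (3 called) 7 were called with array weights or the pan-neuronal covariate. For the difference between stages at 1 h (0 called) 1 was called with arrays shifted to a common median, quantile normalization, the filter, trend and robust moderation, only the groups compared or without both arrays of low median, 2 with array weights and 3 at an unadjusted p under 0.01. At 3 h (1 called) there were 3 with array weights or only the groups compared, 2 with the pan-neuronal covariate, and 0 with the placenta and decidua covariate or at an adjusted p under 0.01. The causes were not tested.

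Leaving out single arrays gave 4 to 7 calls for 1 h of E10.5 culture, 3 to 6 calls for 3 h and 2 to 5 for 6 h, 0 to 2 for 6 h over 3 h, 0 to 1 for 1 h of E12.5 culture and 1 to 4 for 3 h, 3 to 7 for E12.5 over E10.5 at 1 h and 0 to 1 for the difference between stages at 1 h and 1 to 3 at 3 h. The 6, the 5 and the 3 were without E10.5 1 h replicate 1, which is not in those comparisons.

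With the replicate number as a block, 1 gene (*Gfra3*) was called at 1 h of E12.5 culture, 4 with *Gfra3* at 3 h and 2 (*Gfra3* and *Rxrg*) for the difference between stages at 3 h, and no other count moved by over 1.5 times. *Erbb3* was not called at 1 h of E10.5 culture under the block, nor *Fabp7* for E12.5 over E10.5 at 3 h. The numbers did not pair the arrays. Deviations of same-numbered arrays correlated at -0.20 to 0.33 (median 0.01, 63 pairs, 12 over 0.1), and 9 of 21 arrays were closest to their own number.

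Of the single gene results, 40 values in 10 results turned direction, with 0 of them called and a lowest adjusted p of 0.509. *Erbb3* at 6 h over 0 h was -0.0087 with array weights, -0.014 with the pan-neuronal covariate and -0.066 with the placenta and decidua covariate, and -0.12 to 0.10 without single arrays. Over 3 h, 6 h values were 0.0035 for *Gfra3* with a common median and 0.21 with the placenta and decidua covariate (-0.21 to 0.14 without single arrays), and for *Ngfr* -0.041 with array weights and -0.047 without both arrays of low median (-0.0087 to 0.063 without single arrays), while *Fabp7* ranged from -0.85 to 0.029 without single arrays. *Fabp7* was -0.13 at 3 h of E12.5 culture with the pan-neuronal covariate and -0.27 to 2.34 for E12.5 over E10.5 at 1 h without single arrays. *Sox10* at 1 h of E12.5 culture ranged from -0.0012 to 0.18 without single arrays. In the difference between stages at 1 h, *Erbb3* was -0.13 with array weights and -0.13 to 0.24 without single arrays. At 3 h it was 0.059 with quantile normalization and 0.32 with the placenta and decidua covariate (-0.17 to 0.19 without single arrays), and *Ngfr* was 0.014 with a common median, 0.081 with quantile normalization, 0.054 with the pan-neuronal covariate and 0.33 with the placenta and decidua covariate (-0.20 to 0.22 without single arrays).

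The arrays carry no detection call here, so low values such as those of *Mbp*, *Gfap*, *Pmel*, *Dct* and *Tyr* are not separated from background.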
